A study of Mus musculus with 2 samples.

Results

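The regions described here are the places where peaks of an ETS1 antibody and of an ETS2 antibody overlapped far from genes in cultured mouse aortic endothelial cells. They were chosen from the peak calls themselves: an ETS1 peak on chromosome 2, 3, 8, 9 or 11 to 18 was taken where it shared at least 1 bp with an ETS2 peak and its centre lay more than 10 kb from the nearest end of any gene in the RefSeq gene table. The choice gave 2037 shared distal peaks, which is 2.64% of the 77295 ETS1 peaks deposited and 26.7% of the 7627 shared ETS1 peaks on these 12 chromosomes. Both libraries came from endothelial cells isolated from mouse aorta and grown in DMEM-F12 with 20% FBS, heparin, ECGS and PS at 5% CO2. For each, 10 µg of antibody was used on chromatin from 15000000 cells. There was 1 library per antibody, with 143778022 (ETS1) and 134607908 (ETS2) tags, so no value has a replicate error and every interval below covers counting error only. No strain, genotype, age or passage is given in the labels used here, no input library was analysed here, and the labels do not say whether cells from several animals were pooled. All coordinates are mm10 and count from 1.

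The ETS proteins ETS1 and ETS2 resemble each other closely in their DNA-binding domain, which recognises a GGAA core, often beside AP-1 proteins, and both are activated by phosphorylation downstream of RAS-ERK signalling. In endothelial cells, ETS factors are known to act at promoters and at enhancers, which are stretches of regulatory DNA that can lie inside or far from the gene they serve. A distal peak is a candidate enhancer only, because no chromatin mark and no transcription was measured here, and the gene named for a peak is its host gene or, outside genes, the nearest protein-coding gene.

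The distance rule measures from the outer ends of a gene, so a member can still sit at a transcription start that lies inside a gene. The RefSeq promoter table held 745 such internal starts on these chromosomes, each over 10 kb from every gene end. A shared distal peak was centred within 1 kb of 57 of them (7.65%, 95% Wilson interval 5.95 to 9.78), in 50 genes. The bases just upstream of the start that the ETS1 peak covered are printed for the 10 starts with at least 80 such bases, because they are the stretches of the members whose sequence was at hand. They were read from RefSeq promoter sequences of GRCm38.p6, 5′ to 3′ on the strand of the gene, with every GGAA and its reverse complement TTCC in capitals.
Atxn7 (chr14:14012276-14012452, plus strand): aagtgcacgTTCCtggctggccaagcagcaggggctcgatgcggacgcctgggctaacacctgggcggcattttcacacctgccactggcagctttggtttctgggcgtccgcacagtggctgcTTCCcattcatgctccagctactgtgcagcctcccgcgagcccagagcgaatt
Dab2 (chr15:6386498-6386597, plus strand): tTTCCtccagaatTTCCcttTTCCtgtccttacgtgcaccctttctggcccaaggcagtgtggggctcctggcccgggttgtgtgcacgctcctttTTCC
Gm13404 (chr2:33973483-33973659, plus strand): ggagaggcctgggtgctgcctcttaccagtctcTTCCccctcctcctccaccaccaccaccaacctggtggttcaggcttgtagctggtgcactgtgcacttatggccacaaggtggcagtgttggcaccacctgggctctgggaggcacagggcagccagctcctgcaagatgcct
Hdac7 (chr15:97814951-97815113, minus strand): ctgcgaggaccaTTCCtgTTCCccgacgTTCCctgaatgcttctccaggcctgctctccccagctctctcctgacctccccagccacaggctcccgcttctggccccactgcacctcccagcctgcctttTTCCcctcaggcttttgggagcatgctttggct
Pafah1b2 (chr9:45984872-45985014, minus strand): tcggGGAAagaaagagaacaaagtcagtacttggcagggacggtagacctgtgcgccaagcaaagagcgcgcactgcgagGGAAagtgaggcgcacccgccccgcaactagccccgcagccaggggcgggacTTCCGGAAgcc
Phldb2 (chr16:45844474-45844628, minus strand): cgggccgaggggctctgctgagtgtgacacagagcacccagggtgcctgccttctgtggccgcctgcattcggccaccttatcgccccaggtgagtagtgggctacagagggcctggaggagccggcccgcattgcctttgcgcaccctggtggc
Rasgrp3 (chr17:75465376-75465537, plus strand): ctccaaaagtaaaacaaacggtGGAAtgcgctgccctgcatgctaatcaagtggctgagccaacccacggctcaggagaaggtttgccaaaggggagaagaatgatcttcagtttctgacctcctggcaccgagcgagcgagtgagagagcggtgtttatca
Smco4 (chr9:15493189-15493365, plus strand): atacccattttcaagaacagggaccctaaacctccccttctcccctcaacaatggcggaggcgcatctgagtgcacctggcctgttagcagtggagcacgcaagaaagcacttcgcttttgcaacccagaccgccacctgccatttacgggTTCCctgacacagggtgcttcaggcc
Zbtb38 (chr9:96719464-96719640, minus strand): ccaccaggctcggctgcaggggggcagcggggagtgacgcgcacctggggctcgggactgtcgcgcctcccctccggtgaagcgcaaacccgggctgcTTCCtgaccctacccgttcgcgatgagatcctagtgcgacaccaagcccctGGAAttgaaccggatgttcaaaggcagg
Zfhx3 (chr8:108714488-108714643, plus strand): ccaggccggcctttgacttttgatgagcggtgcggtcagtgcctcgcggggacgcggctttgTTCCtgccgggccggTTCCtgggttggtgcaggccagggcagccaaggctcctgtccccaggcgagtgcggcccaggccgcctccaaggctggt

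The stretch at Pafah1b2, which encodes a subunit of a platelet-activating factor acetylhydrolase, held an 8-base ETS motif (ACTTCCGG) beside other cores and ended 1 base before the start. The stretch at Phldb2, a protein that helps anchor microtubules at the cell cortex, held no GGAA or TTCC. The other 8 stretches held between 1 and 4 cores, and GC content ranged from 52.5% at Rasgrp3 to 69.9% at Zfhx3. The full windows of 300 bases ran from 250 before a start to 50 after it. A member within 1 kb of the start can lie outside its window, so these counts describe the starts and not the members. GGAA or TTCC stood in 51 of the 57 windows of starts with a member (89.5%, 78.9 to 95.1), beside 96.0% of all 32851 windows in the table. It stood in 96.4% of the windows of internal starts with an ETS1-only peak and no shared one. Where no peak lay within 1 kb, the share was 95.3%. The core was thus common in windows of every kind, and its share was lowest at starts with a member. CCGGAAGT or CAGGAAGT, each searched on both strands, stood in 3 of the 57 windows (5.26%, 1.81 to 14.4) and in 7.07% of all windows. The AP-1 motif TGACTCA, or its reverse complement, stood in 4 of the 57 (7.02%, 2.76 to 16.7) and in 5.20% of all windows. The windows of starts with a member had a median of 18 CpG sites. Those of the 110 internal starts with an ETS1-only peak and no shared one had 10.5, those with no peak within 1 kb had 4, and all windows had 7. Of those 110 windows, 7.27% held either 8-base ETS motif and 9.09% the AP-1 motif.

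The 57 members within 1 kb of an internal start lay on both sides of it, at a median distance of 285 bp. Among them was a peak at chr16:95458824-95459000 inside Erg, an ETS factor that maintains endothelial identity. It was centred 436 bp downstream of an internal start and overlapped its ETS2 partner by 75 bp. At Hdac7, a histone deacetylase needed for the integrity of developing vessels, members were centred 176 bp upstream and 176 bp downstream of an internal start. Both met the same ETS2 peak, chr15:97814766-97814952, which lay between them. At Runx1, a transcription factor of blood formation from endothelium, the member at chr16:92697825-92698001 was centred at -584 bp from an internal start, on its upstream side. Dab2, an endocytic adaptor, Rasgrp3, a RAS activator that responds to diacylglycerol, and Rara, a retinoic acid receptor, also had members at internal starts.

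**Figure D1:**
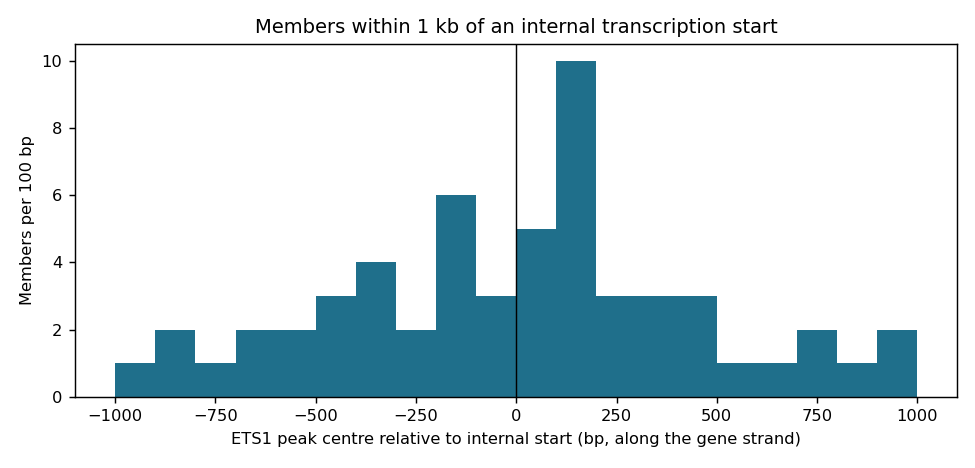
Distance of the ETS1 peak centre from an internal transcription start, in bp along the strand of the gene, for members within 1 kb of such a start (members per 100 bp). The members lie on both sides of the start, and the tallest bar, of 10 members, is 100 to 200 bp downstream.

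Being near an internal start was commoner among shared distal peaks than among the distal ETS1 peaks that met no ETS2 peak. It applied to 57 of 2037 members (2.80%, 2.17 to 3.61) and to 129 of 22730 ETS1-only distal peaks (0.568%, 0.478 to 0.674). The odds ratio was 5.04 (3.68 to 6.91), with an adjusted p of 8.97e-19 in Fisher's exact test over 4 shares compared. Neighbouring peaks share a locus and are not independent, so this p and those below are too small, and they describe these 2 peak lists and not the factors.

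The share of ETS1 peaks that met an ETS2 peak fell with distance from gene ends. Of ETS1 peaks centred within 1 kb of a gene end, 28.9% were shared, and from 2.5 kb outward the share stayed near 10% up to 20 kb. It was 9.82% (9.24 to 10.4) at 10 to 20 kb, 8.30% (7.76 to 8.86) at 20 to 50 kb, 5.64% (4.94 to 6.43) at 50 to 100 kb and 4.68% (3.80 to 5.76) beyond 100 kb. Over all 24767 distal ETS1 peaks 8.22% were shared (7.89 to 8.57), beside 16.7% of the 33571 peaks within 10 kb. The distal part of the ETS2 list was smaller, and 2031 of its 10792 distal peaks, or 18.8%, met an ETS1 peak (18.1 to 19.6). The members lay at a median of 21362 bp from the nearest gene end (quartiles 14652 and 36317) and at most 333097 bp away. Only 14.3% of them were over 50 kb from every gene end, beside 22.8% of ETS1-only distal peaks, a description only, because distance and overlap are what chose the members.

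Peaks just inside the 10 kb limit were assigned to Cln6 (10004 bp from a gene end), 1600014C23Rik (10007 bp) and Foxj1 (10011 bp), and those just outside it to Niban2 (9994 bp), Jcad (9975 bp) and Aknad1 (9966 bp). At the overlap limit, 4 members shared a single base with their ETS2 peak, among them those at Ppp1r36, Slc24a5 and Pebp4. A gap of 1 bp kept 7 ETS1-only distal peaks out, 1 of them near Efnb2, which encodes an arterial ephrin. A further margin was larger, since 1261 ETS1-only distal peaks lay within 500 bp of an ETS2 peak.

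Taller ETS1 peaks were shared far more often. The deposited lists give no height, but their rows run in blocks of equal height, from which a tag count per peak was inferred (how is given with the processing). A member had a median of 32 inferred ETS1 tags (quartiles 30 and 35) and its ETS2 partner a median of 31, close to the caller's threshold of 30. ETS1-only distal peaks had a median of 30 (29 and 32). Of distal ETS1 peaks at 29 tags 4.801% were shared, at 30 tags 5.94%, at 33 to 34 tags 9.80%, and at 35 to 39 tags 16.9%. At 40 to 49 tags the share was 38.6% (33.1 to 44.4), and above 70 tags 79 of 90 were shared (87.8%, 79.4 to 93.0). Most members were nevertheless low peaks, since 56.8% had 32 tags or fewer and 8.002% had over 49. Sharing chose the members, so these shares are given as a description.

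**Figure D2:**
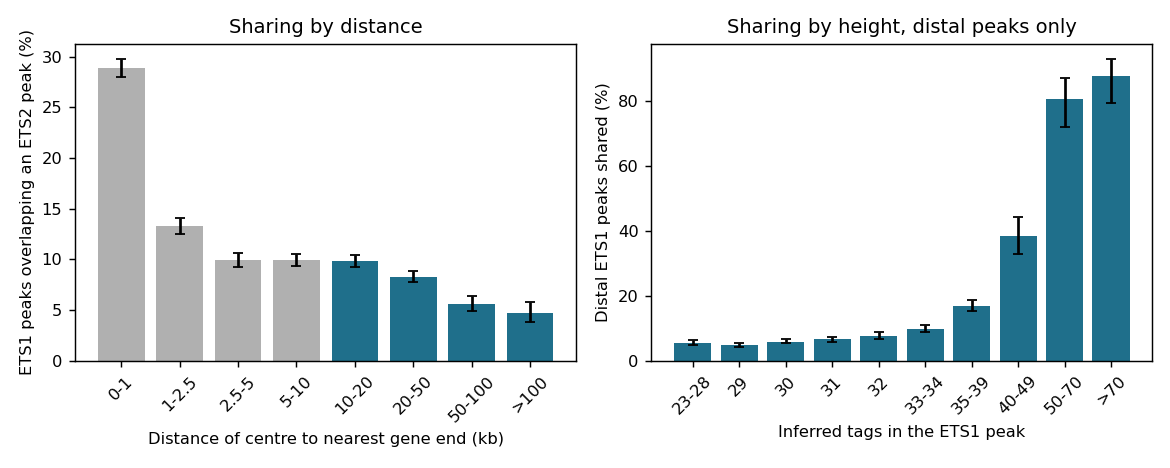
Left, share of ETS1 peaks overlapping an ETS2 peak by distance of the peak centre from the nearest gene end (grey, within 10 kb; blue, distal). Right, share of distal ETS1 peaks that are shared by inferred tags in the peak; bars give 95% Wilson intervals. Sharing falls from 9.82% at 10 to 20 kb to 4.68% beyond 100 kb, and rises with height from 4.801% at 29 tags to 87.8% above 70.

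Overlap chose the pairs, so their closeness follows from the rule and is given as a description. Every member met exactly 1 ETS2 peak, because the caller's minimum distance of 372 bp between ETS2 peaks leaves no room for a second. The median overlap was 127 bp of the 177 bp of an ETS1 peak, and 208 members (10.2%) lay wholly within the ETS2 peak of 187 bp. The centres were a median of 54 bp apart (quartiles 20 and 99), and 514 pairs (25.2%) were within 20 bp. The ETS2 centre was at the higher coordinate in 1049 pairs and at the lower in 960, so both directions were about as common. Inferred heights of the partners went together only loosely across pairs (Spearman's correlation 0.33 over 2037 pairs, which share libraries and loci).

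**Figure D3:**
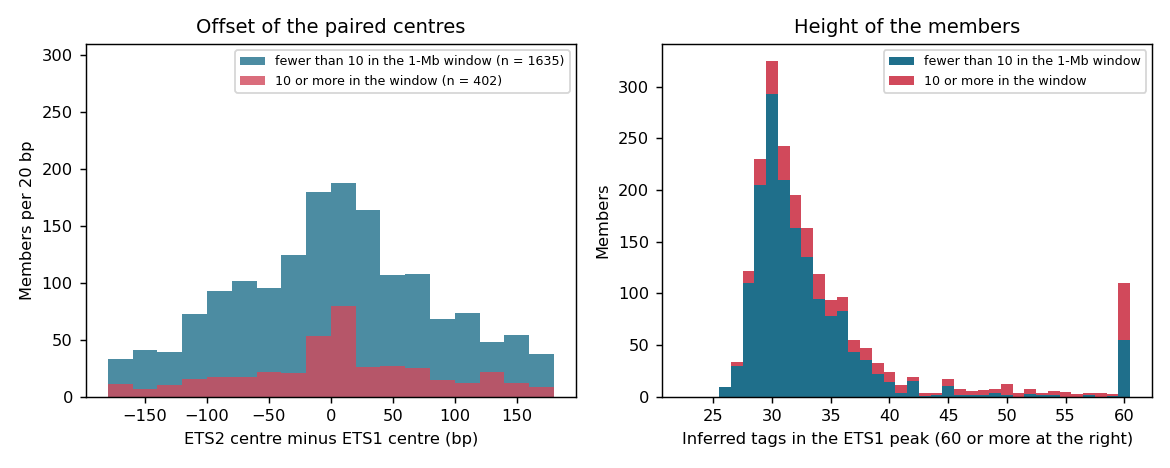
Left, offset of the ETS2 centre from the ETS1 centre (bp, 20 bp per bar) for members in 1-Mb windows with fewer than 10 members (blue, 1635) or with 10 or more (red, 402), overlaid. Right, members by inferred ETS1 tags, stacked in the same colours, with 60 or more gathered at the right. Offsets centre on 0 with a median size of 54 bp, most members are near 30 tags, and 96 of the 163 members with over 49 tags are in the crowded windows.

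Members were unevenly spread, and a few places held very many. Within 1-Mb windows, 23 windows with at least 10 members (a limit chosen after the counts were seen) held 402 members, 19.7% of all, while 747 windows had at least 1. These crowded windows were of unlike kinds. The shares given for windows count all their ETS1 peaks, distal or near gene ends. Over the 12 chromosomes 7627 of all 58338 ETS1 peaks were shared. In the first kind a large part of the ETS1 peaks was shared and the members were tall. The window at Prl2c3 and Prl2c2, prolactin family genes on chromosome 13, held 59 members, with 62.3% of its ETS1 peaks shared and a median of 49 inferred tags. The window assigned to Alkbh8, a tRNA-modifying enzyme on chromosome 9, held 26 members, 1 at 76374 bp and the others 308086 to 335119 bp from the gene, with 83.3% shared and a median of 98.5 tags. Olfr161, an olfactory receptor gene on chromosome 16 (37 members, 52.1% shared), a window on chromosome 8 led by 9530057J20Rik (29 members, 7 of them assigned to the alpha-defensin gene Defa21, 63.7% shared) and Sfi1, a centrosomal gene on chromosome 11 (20 members, 40% shared, median 63 tags), were alike in this. In these windows the members sat in dense runs: 36 members within 42189 bp near Prl2c3, 35 within 49391 bp assigned to Olfr161 and 25 within 27210 bp assigned to Alkbh8. The run assigned to Olfr161 lay 311413 to 360627 bp from that gene.

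The second kind were neighbourhoods of ordinary height, and their shares too include peaks near gene ends, which were shared more often than distal ones. They were rich in ETS1 peaks of any kind: 198 in the window of Myh9, 156 at Irf2bp2, 152 at Rxra, 143 at Ank and 184 at Zmiz1. The 12 chromosomes held 58338 ETS1 peaks over 1434 Mb. Whether these windows held more members than their density of ETS1 peaks gives was not tested. The window of Myh9, the heavy chain of non-muscle myosin IIA, held 23 members with 16.2% of ETS1 peaks shared and a median of 32 tags. Irf2bp2, a transcriptional co-repressor, had 19 in its window (26.3% shared, 32 tags), Rxra, the retinoid X receptor alpha, 18 (22.4%, 31 tags), Ank, a pyrophosphate transporter, 15 (14.7%, 31 tags) and Zmiz1, a co-activator, 14 (11.96%, 34 tags). The windows of Socs3, a feedback inhibitor of cytokine signalling, Zfp36l2, which promotes decay of AU-rich transcripts, and Synpo, an actin-binding protein, had 11 each. The windows of Esp34, an exocrine-gland peptide gene (12 members, 37.2% shared), and Chil4, a chitinase-like gene (10 members, 38.9% shared), stood between, with a high share and a median of 33 tags.

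**Figure D4:**
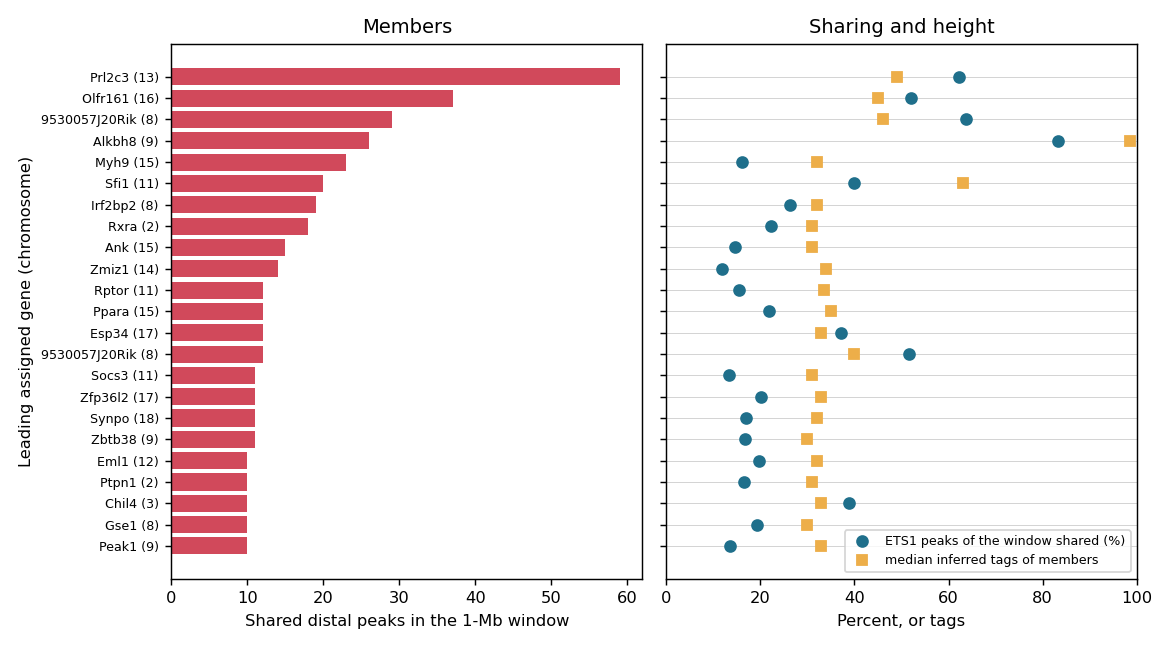
The 23 1-Mb windows with at least 10 members, named by the leading assigned gene with its chromosome in brackets. Left, number of members; right, percent of all ETS1 peaks of the window that were shared (circles) and median inferred ETS1 tags of its members (squares). The windows led by Prl2c3, Olfr161, 9530057J20Rik, Alkbh8 and Sfi1 have median tags of 40 or more, and the others are between 30 and 35.

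The tallest members stood in few places. The first in the ETS1 list was chr2:98667043-98667219, with at least 267 inferred tags and at least 186 in its ETS2 partner, offset by 1 bp. It is 1 of 4 members within 4451 bp that were assigned to Lrrc4c, a synaptic adhesion gene, only because it is nearest, about 1 Mb away. Next came chr14:19417758-19417934 near Gm2244, with at least 266 and 186 tags and an offset of 0 bp. Members were also frequent in the first assembled Mb of the chromosomes, which held 106 of them (5.20%) on 0.728% of the sequence open to members, or 16.2 per Mb beside 2.27 overall. Of these, 43 were on chromosomes other than 9 and 16, among them the 20 of the Sfi1 window on chromosome 11. Repeats and copy number at these places were not tested.

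The 402 members in crowded windows differed from the 1635 elsewhere in height and position. They had a median of 35 tags beside 31, and 23.9% had over 49 tags beside 4.10%. Only 34.3% were inside a protein-coding gene, beside 63.2% of the rest. The heights of ETS1 and ETS2 partners also followed each other more closely in the crowded windows (Spearman's correlation 0.66) than outside them (0.20), given as a description because pairs of a window share its sequence. Outside runs, most members stood alone: 1249 (61.3%) had no other member within 12500 bp, and 468 formed 92 groups of at least 3. Alone here means apart from other members only, since 86.4% of members had some ETS1 peak within 12500 bp, beside 70.9% of ETS1-only distal peaks (odds ratio 2.60, 2.29 to 2.97, Fisher's exact test, adjusted p = 1.85e-56). The odds ratio was 2.42 among peaks of 32 inferred tags or fewer and 2.29 among taller ones.

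Over all members, 1172 (57.5%, 55.4 to 59.7) were inside a protein-coding gene, beside 62.0% of ETS1-only distal peaks (odds ratio 0.831, 0.758 to 0.911, Fisher's exact test, adjusted p = 8.68e-05). This difference was not seen in low peaks or outside the crowded windows. Those windows were picked by their number of members, so the value without them is a description only. By Fisher's exact test the odds ratio was 1.07 (adjusted p = 0.290) among peaks of 32 inferred tags or fewer and 0.569 (adjusted p = 8.81e-14) among taller ones, and 1.06 (adjusted p = 0.267) without the crowded windows. Nearness to an internal start kept its direction in each of these, with odds ratios of 6.37 in low peaks and 2.72 in taller ones. Per chromosome the shared share of distal ETS1 peaks ran from 6.50% on chromosome 14 to 9.68% on chromosome 9, and the share of members inside genes was lowest on chromosome 13, at 33.3%, where the Prl2c window lies.

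The members were assigned to 1136 protein-coding genes. A gene can only receive a member where it has sequence over 10 kb from every gene end, inside it or nearest to it, and 7652 genes on these chromosomes had such sequence, so 14.8% of them received at least 1 member. Of the 1136, 772 received a single member, 364 at least 2 and 56 at least 5. The share depended strongly on the amount of sequence: 3.17% of genes with up to 10 kb of it, 18.1% of those with 30 to 100 kb and 30.1% of those with 100 to 300 kb had a member. Each gene list below is read against that background, and the median open sequence of its genes is given beside its count, the median of all 7652 genes being 32 kb. The lists are short, and their intervals are wide. ETS1-only and ETS2-only distal peaks named with a gene are counted over all its open sequence, inside it or nearest to it.

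**Figure D5:**
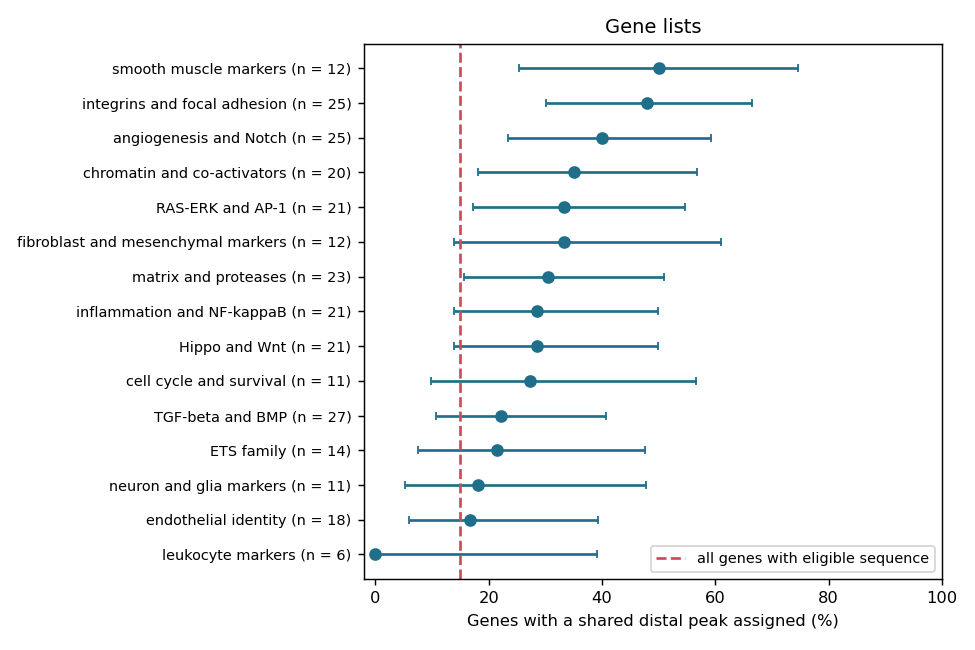
Percent of genes with at least 1 member assigned in each of 15 gene lists, over genes with sequence open to members (n in brackets), with 95% Wilson intervals. The dashed line is the 14.8% of all 7652 genes; smooth muscle markers (50%) and integrins and focal adhesion (48.0%) stand highest, and leukocyte markers are at 0 of 6.

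Genes of the ETS family itself carried members at 3 of 14 (21.4%), with a median of 52 kb of open sequence. Ets1 had 3, all inside the gene on chromosome 9: chr9:32706091-32706267 with 29 ETS1 and 33 ETS2 tags, chr9:32712705-32712881 with 36 and 34, and chr9:32717298-32717474 with 32 and 30. They lay within about 11 kb of one another and 40434 to 51641 bp from the nearest end of Ets1. The gene is 122 kb long, and its 811 kb of open sequence, inside it or nearest to it, held 14 ETS1-only and 19 ETS2-only distal peaks. Erg had 4 members with 29 to 33 ETS1 tags and 30 to 32 ETS2 tags, 3 inside the gene and 1 at 55168 bp from it. Etv4, an ETS factor induced by ERK signalling, had 2 at 21865 and 29625 bp from its end and no unshared distal peak of either list.

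In the RAS-ERK and AP-1 list 7 of 21 genes had a member (33.3%), with a median of 46 kb of open sequence. Sos2, an exchange factor that loads RAS with GTP, had 2 inside the gene. They were of very unlike height, with 30 tags in both lists at chr12:69635871-69636047 and at least 182 ETS1 and 126 ETS2 tags at chr12:69654133-69654309. Spry2, a feedback inhibitor of receptor tyrosine kinase signalling, had 2 outside the gene, and Spry4, Spred1, Spred2 and Nf1 had 1 each. These 5 genes encode inhibitors of the pathway (the sprouty and SPRED proteins and neurofibromin), a grouping made after the names were seen.

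Angiogenesis and Notch genes had members at 10 of 25 (40%, 23.4 to 59.3), with a median of 36 kb of open sequence. The count was 3 where members had to be over 20 kb from gene ends, and 4 in the first 50% of each list. Notch1, a receptor that shapes arterial and sprouting endothelium, had 3, all beyond the same end of the gene: chr2:26517242-26517418 with 38 ETS1 and 39 ETS2 tags, chr2:26528737-26528913 with 38 and 47, and chr2:26532401-26532577 with 36 and 36. They stood 13508, 25003 and 28667 bp from the gene, all 3 were above the member medians of 32 and 31 tags, and the neighbourhood held 2 ETS1-only and 3 ETS2-only distal peaks. The ligands Jag1 and Jag2, the receptor Notch2 and the target gene Hes1 had 1 member each. So did Efnb2, amid 52 ETS1-only distal peaks, Fgf2, an angiogenic growth factor, with 34 and 31 tags inside the gene, and Hif1a, the hypoxia-induced factor.

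Genes of endothelial identity had a member at 3 of 18 (16.7%, 5.84 to 39.2), close to the share over all genes, with a median of 38 kb of open sequence. These were Erg, Calcrl, the adrenomedullin receptor, with 1 inside the gene at 30 and 31 tags, and Nrp1, a VEGF co-receptor, with 1 at 335928 bp from the gene at 37 and 30 tags. The junction genes Pecam1 and Cdh5 had 0 members, with 6 and 4 ETS1-only distal peaks, and Emcn had 0 with 4. Eng had 0, with only 3 kb of open sequence. Expression was not measured, so peak counts at marker genes are no check of the cell type in the labels.

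Cytoskeletal and adhesion genes carried many members. In the integrin and focal adhesion list 12 of 25 genes had 1 (48.0%, 30.03 to 66.5), with a median of 96 kb of open sequence, and 5 had in the first 50% of each list. Myh9 led all genes outside the first kind of crowded window. Its 15 members were all inside the gene, spread from chr15:77776679-77776855 to chr15:77829778-77829954, with 28 to 40 ETS1 tags and 28 to 39 ETS2 tags. They stood beside 37 ETS1-only and 11 ETS2-only distal peaks in 87 kb of open sequence, so 28.8% of its distal ETS1 peaks were shared. Actn1, an actin cross-linker of adhesions, had 5 inside the gene with 29 to 37 ETS1 tags. Src, a kinase of adhesion and growth factor signalling, had 4 inside the gene with 30 to 38 ETS1 tags. Itgb5, an integrin subunit, had 3, the adhesion scaffold gene Lpp had 3 amid 86 ETS1-only distal peaks, and Tns3, Fermt2 and Bcar1, which link or signal from integrins, had 2 each. Rock2, a kinase that activates myosin, and Diaph1, a formin that elongates actin filaments, had 2 each.

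Plec, which encodes the linker protein plectin and was in none of the lists, had 9 members inside the gene within 15929 bp, with 29 to 45 ETS1 tags and 30 to 38 ETS2 tags. At 360 members per Mb of open sequence it was second to Prl2c3 (443 per Mb) among genes with at least 5, though it had only 25 kb of such sequence. Irf2bp2 had 12 members, all outside the gene and on both sides of it, from 16793 to 122871 bp away, with 29 to 34 ETS1 tags and 28 to 34 ETS2 tags. A run of 4 stood within 6949 bp. Rxra had 11, of which 2 were inside the gene and 9 lay 10695 to 55401 bp beyond the same end, with 28 to 37 ETS1 tags and 27 to 35 ETS2 tags. None of these 3 genes had a peak over 45 inferred tags among its members.

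TGF-β and BMP genes had members at 6 of 27 (22.2%, 10.6 to 40.8), with a median of 105 kb of open sequence, and at 3 where the overlap had to reach 50% of the peak. Smad6, an inhibitory SMAD induced by BMP signalling in endothelium, had 5, of which 4 were inside the gene, with 27 to 36 ETS1 tags and 29 to 34 ETS2 tags. Ltbp1, which binds latent TGF-β in the matrix, had 5 inside the gene, spread over more than 250 kb of it and amid 35 ETS1-only distal peaks. Smad3, which carries TGF-β signals to the nucleus, had 3, the inhibitor Smad7 had 2, and the receptor gene Acvr1 and Ltbp2 had 1 each. Matrix and protease genes had a member at 7 of 23 (30.4%, a median of 31 kb open), led by the collagen gene Col5a1 with 3.

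Among chromatin regulators 7 of 20 genes had members (35.0%), with a median of 68.5 kb of open sequence, and 3 over 20 kb from gene ends. Hdac7 had 4 within 4591 bp, with 31 to 36 ETS1 tags and 30 to 34 ETS2 tags, in only 18 kb of open sequence. Its neighbours in the list, Arid1b with 2 and Brd3, Smarca4, Crebbp, Hdac9 and Kat6b with 1 each, were thinner. Inflammation genes had a member at 6 of 21 (28.6%, a median of 31 kb open), among them Irf8 with 2 and Nfkbia, the inhibitor of NF-κB, with 1. Csf2, which encodes the cytokine GM-CSF, had 1 at 11452 bp from the gene and no unshared distal peak. Cell cycle and survival genes had members at 3 of 11, with a median of 47 kb open. The anti-apoptotic gene Bcl2l1 had 4 inside the gene with 30 to 38 ETS1 tags in 28 kb of open sequence, while Myc had 2 against 79 ETS1-only distal peaks in 1213 kb. Hippo and Wnt genes had a member at 6 of 21 (28.6%, a median of 88 kb open), led by the kinase gene Stk3 with 3, and the co-activator gene Yap1 had 2.

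Lists of other cell types were not empty. Smooth muscle markers had members at 6 of 12 genes (50%, 25.4 to 74.6), with a median of 105 kb of open sequence, and at 3 over 20 kb from gene ends. Myocd, the smooth muscle co-activator, had 4, of which 1 was inside the gene and 3 lay 161664 to 189645 bp away, and the actin-responsive co-activators Mrtfb and Mrtfa had 3 and 1. The others were the tropomyosin gene Tpm1, Synpo2 and the growth factor receptor gene Pdgfrb, with 1 each. Among the genes fixed as cell type markers, Myh11 had 0 members with 3 ETS1-only distal peaks, and Tagln and Cnn1 had no sequence over 10 kb from a gene end. Fibroblast and mesenchymal genes had members at 4 of 12 (a median of 110 kb open), namely Runx1 with 6, Runx2 and Zeb1 with 4 each and Zeb2 with 2. At Runx1 5 were inside the gene, including the tallest, at chr16:92697825-92698001 with 45 ETS1 and 39 ETS2 tags. The fixed fibroblast marker Col1a1 had 0 members with 3 ETS1-only distal peaks, and Pdgfra, Col1a2, Dcn and Lum were not on the 12 chromosomes. Leukocyte markers had 0 of 6, with a median of 42 kb of open sequence and an interval of up to 39.03%, and neuron and glia markers 2 of 11 (18.2%), in spite of a median of 450 kb. These counts say where peaks lay and not which cells were present.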

How the data were processed

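The submitters' processing notes list CASAVA 1.8, Bowtie2 and HOMER as tools and mm9 beside mm10 as builds. Per the file headers, peaks were called by HOMER findPeaks in factor style from mm10 tag directories with no control directory, a false discovery rate of 0.01 and a threshold of 30 tags. The deposited coordinates (start and end of each peak) are of fixed width, and the score deposited by the authors is 1 in every row and was not used. Per the file headers, 1.89% (ETS1) and 1.53% (ETS2) of tags were in peaks.

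Heights were inferred from the deposited row order. Rows run through the chromosomes in order and then start again, in 245 blocks for ETS1 and 163 for ETS2, which were read as ties 1 tag apart. With the lowest block at 23 (ETS1) or 24 (ETS2) tags, the largest value that keeps the sum within the total in the header, the sum is 99.5% and 99.1% of that total and the largest block falls on 30 tags in both. Above 70 (ETS1) and 60 (ETS2) tags, where blocks have under 10 peaks, the inferred value is a lower bound.

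Overlap, distance and assignment were computed with pandas 2.3.3 and NumPy 2.4.6 against the RefSeq gene table of GRCm38.p6 (its chromosomes are the mm10 ones). A centre inside several protein-coding genes went to the one with the nearest end. Open sequence was counted on a 1-kb grid. Wilson intervals (95%) and two-sided Fisher's exact tests with Benjamini-Hochberg adjustment over 4 shares (that over 50 kb is given without its test) used SciPy 1.17.1 and statsmodels 0.14.6. Steps were tested on simulated data. The members and gene lists were chosen with earlier results of these data known. Named genes are the 10 with most members, the 5 densest with at least 5, up to 3 per list, and those of the first 5 members and the 5 largest clusters, and other genes were named after their values were seen. The comparison at internal starts, the crowded windows and the inferred heights were added after the data were seen. Of 553 list entries 551 matched a symbol. Sequence was at hand only around annotated starts, so the sequence features of all members that the design planned were not analysed. Some items that these steps cover are not reported here.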

Additional observations from a re-analysis of the deposited data

How the results depend on the processing

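No paired analysis was possible because there is 1 library per antibody, and no replicate could be left out. The share of distal peaks that were shared, 8.22%, was 5.97% when the overlap had to reach 50% of the peak, 11.7% for centres within 500 bp, 8.67% over 5 kb and 7.23% over 20 kb from gene ends, 8.995% with ends of protein-coding genes only, 6.96% for the first 50% of each list, 10.6% over all 19 autosomes, 7.82% without the 1% densest windows, 7.004% without the crowded windows and 18.8% with ETS2 peaks as members. The first 50% of a list ends inside a block of equal height and so cuts partly by chromosome. The number of members, 2037, was 1102 over 20 kb, 745 for the first 50% and 3381 over all autosomes, and the number of genes, 1136, was 658, 449 and 1727. The 92 groups of at least 3 members were 55 (50% overlap), 177 (centres within 500 bp), 46 (over 20 kb), 140 (protein-coding ends), 27 (first 50%), 160 (all autosomes) and 55 (without crowded windows). The odds ratio for lying inside a gene, 0.831, lost its call in Fisher's exact test with centres within 500 bp (0.943, adjusted p = 0.144) and over 20 kb (0.882, adjusted p = 0.0501), and turned to 1.06 without the crowded windows and 1.07 in peaks of 32 tags or fewer. The odds ratios for a neighbouring peak (2.05 to 3.09 over 13 alternatives) and for an internal start (2.09 to 6.37 over 14) kept direction and call. Of the 15 gene list counts given, 11 were lower by over 1.5 times in the first 50% of each list, 5 over 20 kb and 1 at 50% overlap, while 3 were higher over 5 kb, 3 with protein-coding ends and 5 over all autosomes. Myh9 had 23 members for centres within 500 bp and 6 in the first 50%. Without the 1% densest windows Myh9, Prl2c3 and Prl2c2 had 0, because their windows are among those left out. Irf2bp2 had 6 at 50% overlap, over 20 kb and in the first 50%, and Rxra had 6 in the last 2 of these. The alternatives without crowded windows, by height, by distance to an internal start and without peaks near one were chosen after seeing the data.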
